A study of Homo sapiens with 3 samples.

Results

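ADGRV1 (also GPR98 or VLGR1) carried 198 of the 115227 clusters deposited for a MATR3 PAR-CLIP experiment, namely 138 in wild-type (WT) replicate 1 (WT rep1), 59 in WT replicate 2 (WT rep2) and 1 in the MATR3 knockout (KO) library. The members are all clusters to which the submitters' annotation gave the gene name ADGRV1. The gene was picked because it had many clusters, so its cluster counts, reads and ranks are given as a description and were not tested. PAR-CLIP, a form of crosslinking and immunoprecipitation with a photoactivatable nucleoside, recovers RNA fragments that were crosslinked to a protein, and a crosslinked thiouridine is read as C, so contact sites carry T-to-C changes. The 3 libraries came from HAP1, a near-haploid human line derived from the KBM-7 leukaemia line. The WT group was 2 libraries of unmodified HAP1 cells, the KO group 1 library of a purchased MATR3 knockout line of HAP1, and the labels record no treatment that set them apart. All were precipitated with anti-FLAG beads, and the labels record no tag on MATR3 in either line. A cluster is a stretch of overlapping reads with converted positions, called by the authors in each library on its own.

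MATR3 is a nuclear RNA-binding protein with RNA recognition motifs and zinc fingers, known for contacts with pyrimidine-rich intron sequence and for repression of exons. ADGRV1 encodes a very large adhesion G protein-coupled receptor, which forms links between the stereocilia of sensory hair cells and lies at the periciliary membrane of photoreceptors. Its loss causes a form of Usher syndrome, a combined loss of hearing and sight. Nearly all of so long a gene is intron, and its pre-mRNA therefore offers a nuclear protein a long unspliced template.

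The sequences below are examples of sites in this gene. Sites shared by the WT libraries differed from the others in T share and conversion, as given further on. They are 7 of the 8 sites found in both WT libraries with the highest geometric mean of reads, each as WT rep1 and WT rep2 had it. Letters are DNA, 5′ to 3′, on the plus strand of chromosome 5 in hg38, as in the deposited tables. Capitals mark any of 6 words of 5 letters, searched on the strand of the RNA. TTCTT is the first, with TTTCT as its shifted form, TCTTT as a further shift and CTCTT as a near relative, and these pyrimidine words overlap one another. ATCTT ends like CTCTT and can overlap the others, and the word GTGGC stands apart.
WT rep1 at chr5:91007395-91007443: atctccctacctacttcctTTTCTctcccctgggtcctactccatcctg
WT rep2 at chr5:91007395-91007426: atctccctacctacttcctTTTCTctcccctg
WT rep1 at chr5:90696669-90696706: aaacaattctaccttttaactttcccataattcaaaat
WT rep2 at chr5:90696669-90696707: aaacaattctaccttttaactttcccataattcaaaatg
WT rep1 at chr5:90780695-90780726: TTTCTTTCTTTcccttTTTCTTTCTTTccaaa
WT rep2 at chr5:90780695-90780726: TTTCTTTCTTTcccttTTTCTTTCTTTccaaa
WT rep1 at chr5:90937230-90937267: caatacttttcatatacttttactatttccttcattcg
WT rep2 at chr5:90937230-90937267: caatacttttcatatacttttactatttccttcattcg
WT rep1 at chr5:90727895-90727927: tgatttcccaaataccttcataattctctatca
WT rep2 at chr5:90727897-90727928: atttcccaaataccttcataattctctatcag
WT rep1 at chr5:90727308-90727335: aacttactcctttttaTTCTTTcacatc
WT rep2 at chr5:90727308-90727336: aacttactcctttttaTTCTTTcacatcg
WT rep1 at chr5:90899143-90899172: taaaactttttaaaaattccTTCTTTaaat
WT rep2 at chr5:90899143-90899173: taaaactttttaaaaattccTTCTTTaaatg
All 7 are annotated as intron, and in each T and C together make up most of the bases, whether or not it holds one of the words. At 90696669, however, A is the commonest base, at 39.5% in WT rep1 and 38.5% in WT rep2. The single KO cluster looked different, and it is printed here against the WT cluster nearest to it in each library.
KO at chr5:90943418-90943447: ttggggctGTGGCacaagctgtgttccctg
WT rep1 at chr5:90943453-90943479: cataatctctCTCTTcacctttacctg
WT rep2 at chr5:90944086-90944120: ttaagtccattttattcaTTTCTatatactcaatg
The KO sequence holds GTGGC and none of the pyrimidine words, and its runs of G are absent from the neighbouring WT sequences. Most other intronic KO clusters lack the pyrimidine words too: 27.8% hold at least 1 of them, and 1.86% hold GTGGC. Among ADGRV1 clusters 55.1% in WT rep1 and 69.5% in WT rep2 hold at least 1 pyrimidine word.

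The counts of the libraries set the frame. WT rep1 held 87230 clusters, WT rep2 held 27155 and KO held 842, made of 2668797, 1558995 and 224142 reads. These are reads inside called clusters, so the sequencing depth is not known from the tables, and reads without molecular identifiers are not independent molecules. Intervals below therefore cover counting error only. Nothing in the labels says that the WT libraries came from separate cultures. ABL1, a partner of the BCR-ABL1 fusion that HAP1 carries, had 5 and 2 clusters in WT rep1 and rep2 and none in KO. No cluster in any library was named BCR, and these counts are no check of the cell line. Clusters on RNA do not measure expression, and RNA input was not analysed here, so a gene with many sites and a gene with much pre-mRNA cannot be told apart.

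ADGRV1 spans 605.641 kb on the plus strand of chromosome 5, from 90558797 to 91164437 in RefSeq (GRCh38.p14). It held 0.158% of the clusters of WT rep1 (95% exact binomial interval 0.133 to 0.187%) and 0.217% of those of WT rep2 (0.165 to 0.280%), a mean of 0.188 ± 0.0418% (SD, n = 2). The reads in its clusters numbered 4508 in WT rep1 and 3104 in WT rep2, or 0.169% and 0.199% of all cluster reads. By number of clusters the gene ranked 5 of 9189 genes in WT rep1 and 5 of 6043 in WT rep2. By reads it ranked 13 and 11. The raw counts, 138 and 59, averaged 98.5 ± 55.9 (SD, n = 2); as a share of all clusters the order of the libraries was the reverse.

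Most genes of similar length had far fewer. Of 315 protein-coding RefSeq genes of at least 500 kb, 98 had no cluster in either WT library, and the median was 0.360 clusters per 100 kb in WT rep1 and 0.116 in WT rep2. ADGRV1 had 22.8 and 9.74 clusters per 100 kb. It stood second to PPFIA2, a scaffold protein gene with 29.3 per 100 kb, in WT rep1, and highest of the 315 in WT rep2. Per length, shorter genes such as SND1 (440.4 kb, 38.8 and 16.8 clusters per 100 kb), a nuclease and transcription co-activator, were denser in both libraries.

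**Figure D1:**
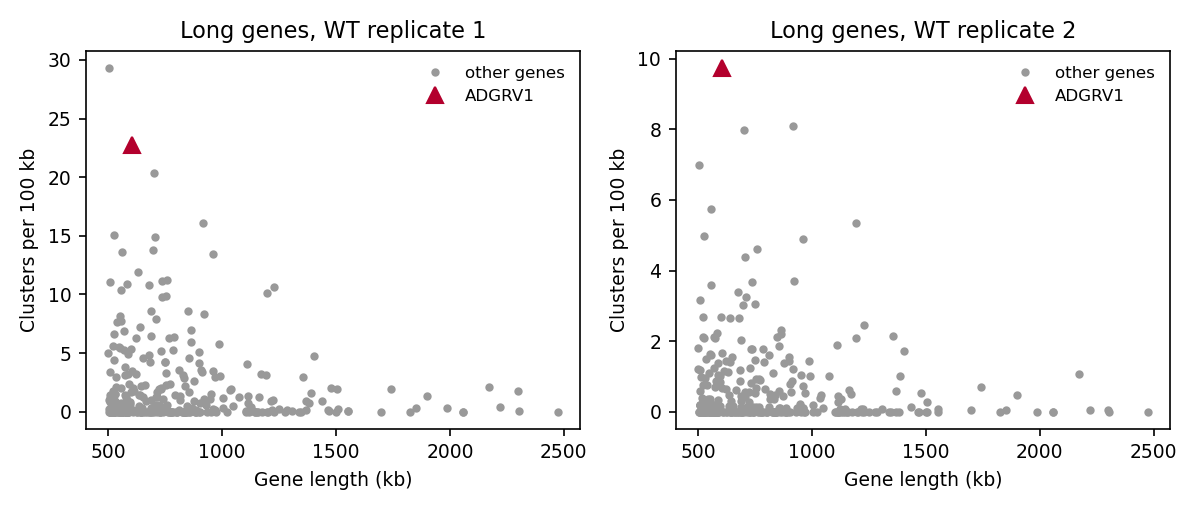
Clusters per 100 kb of gene (y axis, one panel for each WT library, separate scales) against RefSeq gene length in kb (x axis) for the 315 protein-coding genes of at least 500 kb, one point a gene. Most genes sit near 0, and ADGRV1 (triangle) lies at 22.8 in WT rep1 and 9.74 in WT rep2.

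The genes whose cluster counts were most like those of ADGRV1 over the 3 libraries, by Euclidean distance on the log2(clusters + 1) scale, were TTC28, PVT1, AUTS2, TEAD1 and POLA1. The closest, TTC28, had 143, 56 and 1 clusters in WT rep1, WT rep2 and KO, a distance of 0.0899. PVT1, a long non-coding RNA gene, had 111, 42 and 1, and AUTS2 had 121, 64 and 2. TEAD1, a transcription factor of the Hippo pathway, had 109, 37 and 1. POLA1, the catalytic subunit of DNA polymerase alpha, had 98, 49 and 2. The likeness covers 3 numbers per gene and says nothing of sequence or position.

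Most other genes of the Usher group had no WT cluster, which also held for 11365 of all 20056 protein-coding genes. Of 10 such genes, 1 had a cluster in both WT libraries, against 26.2% of protein-coding genes, a difference that was not tested. That gene was HARS1, a histidyl-tRNA synthetase, with 3 and 1 clusters. WHRN, the scaffold that binds the ADGRV1 tail, had 1 cluster of 5 reads in WT rep1 and none in WT rep2. PDZD7, MYO7A, USH1C, USH1G, CDH23, PCDH15, CLRN1 and CIB2 had none in any library. The list's median was 0 clusters in both WT libraries, as was the median of all protein-coding genes.

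Among the other adhesion receptors, 30 of 32 names matched RefSeq protein-coding genes. Of these, 5 had clusters in both WT libraries, against the same 26.2% of all protein-coding genes, 3 in 1 of them and 22 in neither. ADGRL3, a latrophilin, had 23 and 12 clusters over 878 kb, and ADGRB3, a brain-enriched receptor of similar length, had 25 and 5 over 754 kb. Per 100 kb that was 2.62 and 1.37 for ADGRL3 and 3.31 and 0.663 for ADGRB3, below the 22.8 and 9.74 of ADGRV1. The shorter ADGRA3 had 20 and 9 clusters, or 15.5 and 6.99 per 100 kb. ADGRL2 had 7 and 3, and CELSR1, a planar cell polarity receptor, had 2 and 2. The members with clusters in 1 WT library were ADGRL1 (9 clusters, replicate 1), ADGRB1 (1, replicate 1) and ADGRF3 (1, replicate 2). ADGRE1 had none in WT and 1 of 688 reads in KO.

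The sites were in introns. In WT rep1, 136 of the 138 ADGRV1 clusters were annotated as intron and 2 as coding, and all 59 clusters of WT rep2 and the KO cluster were intronic. Intronic clusters outside ADGRV1 made up 83.9% of all clusters in WT rep1, 82.9% in WT rep2 and 64.0% in KO. The part of the gene's length that is exon was not analysed here. The coding clusters were small. One lay 56.1 kb from the gene start at chr5:90614859-90614891 with 19 reads, and the other 120.8 kb from it at chr5:90679555-90679585 with 15 reads. The second was unlike most sites, with 38.7% G, the highest G share of any ADGRV1 cluster in the WT libraries. No cluster of another name, and none on the minus strand, lay inside the gene's interval in any library, so overlapping genes took no cluster there. The nearest upstream gene with a cluster, POLR3G, a subunit of RNA polymerase III on the same strand, had 5 intronic clusters in WT rep1 and 2 in WT rep2. All 7 lay between positions 90507677 and 90508451.

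Sites ran along nearly the whole transcript. In WT rep1 the first cluster began 0.95 kb after the gene start and the last ended 28.7 kb before the gene end. In WT rep2 these distances were 16.2 kb and 23.7 kb. The share of clusters upstream of the gene's midpoint was 54.3% (75 of 138, exact interval 45.7 to 62.8%) in WT rep1 and 55.9% (33 of 59, 42.4 to 68.8%) in WT rep2, a mean of 55.1 ± 1.12% (SD, n = 2). An even split lay inside both intervals, so these counts showed no lean to either side of the midpoint. This split does not describe the ends of the gene.

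**Figure D2:**
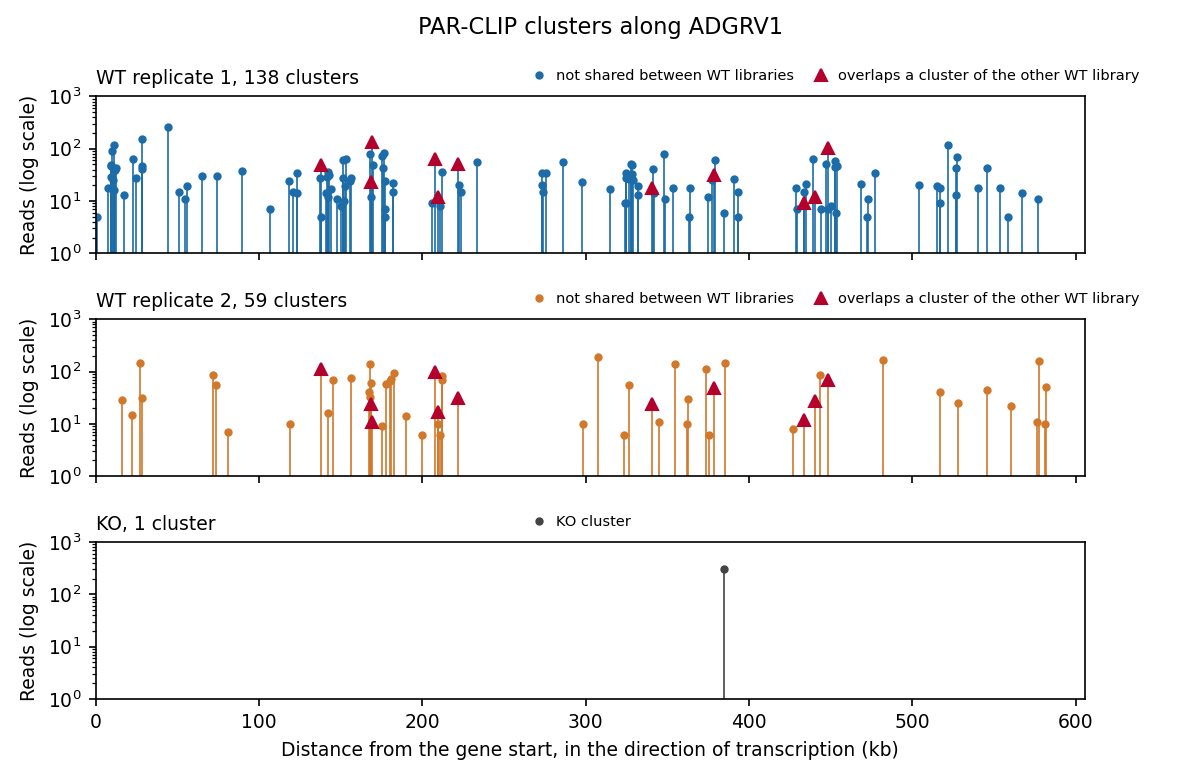
Reads per cluster (y axis, log scale) against distance from the gene start in kb (x axis) for every ADGRV1 cluster of the 3 libraries, one panel a library. Triangles mark the 11 sites that overlap between the WT libraries, which lie between 137.9 and 448.6 kb, and the KO panel holds 1 cluster at 384.6 kb.

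Within that span the sites were uneven. Cut into 5 equal segments of 121.1 kb, the gene held 27, 42, 26, 29 and 14 clusters of WT rep1 from start to end, and 8, 24, 9, 10 and 8 of WT rep2. The second segment was the fullest in both, with 30.4% of the clusters (exact interval 22.9 to 38.8%) and 40.7% (28.1 to 54.3%). Cut into 20 windows of 30.3 kb, 2 windows were empty in both WT libraries, namely the 9th, from 242 to 273 kb, and the 14th, from 394 to 424 kb. The cluster counts of the WT libraries over the 20 windows had a Pearson's r of 0.621 and a Spearman's rho of 0.689. The windows share the gene and its base composition, and these values are a description.

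**Figure D3:**
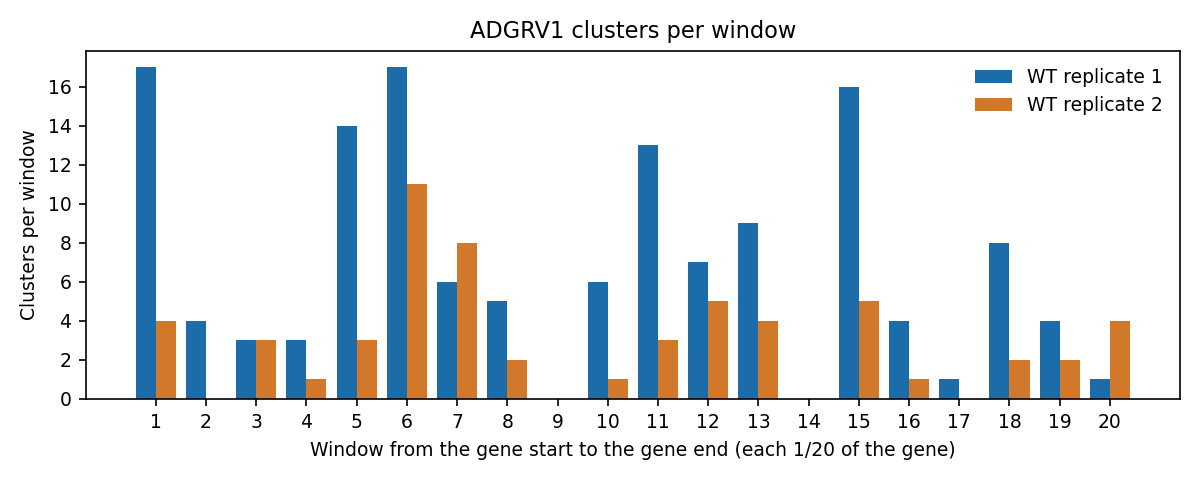
Number of ADGRV1 clusters (y axis) in 20 equal windows from the gene start to the gene end (x axis), with a bar for each WT library. Window 6 holds 17 and 11 clusters, the most in WT rep2 and level with window 1 in WT rep1, and windows 9 and 14 hold none in either.

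The windows also differed between the libraries. Window 1, the first 30.3 kb, held 17 clusters with 823 reads in WT rep1 and 4 with 218 reads in WT rep2. Window 20, the last, held 1 cluster of 11 reads in WT rep1 and 4 with 229 reads in WT rep2. Counts this small carry wide errors, and the difference between windows was not tested.

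Spacing was looked at on a finer scale. The median gap between neighbouring clusters was 1323 nt in WT rep1 (quartiles 350 and 5123, 137 gaps) and 5438 nt in WT rep2 (1446 and 10847, 58 gaps). The mean gaps, 4170 and 9724 nt, were 3.15 and 1.79 times the medians. Sites placed at random also give a mean gap above the median, and no random placement was compared here. In HDAC9 the ratios were 5.33 and 9.47, in SND1 2.63 and 2.22, and in GPC3 2.71 and 3.66. In WT rep1, 44.5% of the gaps were at most 1 kb, and in WT rep2 20.7% were. The longest gap was 39.6 kb in WT rep1 and 76.4 kb in WT rep2. Pooling the clusters of both WT libraries, the widest stretch without a cluster was 39.6 kb long, from 233.5 to 273.1 kb. The next, of 33.2 kb, ran from 393.5 to 426.7 kb.

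**Figure D4:**
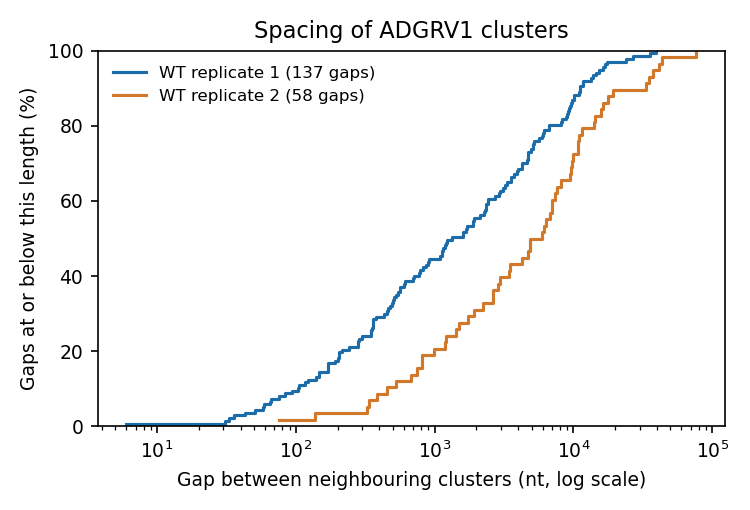
Share of gaps at or below a given length (y axis, %) against the gap between neighbouring ADGRV1 clusters in nt (x axis, log scale), one line for each WT library. The WT rep1 line lies to the left, with a median of 1323 nt against 5438 nt.

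Clusters of both WT libraries were then chained wherever the next one began within 2000 nt. The 197 clusters formed 70 stretches, of which 28 were a single cluster and 30 held clusters of both libraries. The 10 stretches with at least 5 clusters held 41.1% of all WT clusters in 5.64% of the gene's length, and 8 of these 10 had clusters from both libraries. The stretches were defined on these same clusters, so the concentration is a description. A stretch of many clusters is more likely to hold both libraries, and no share from other genes is given. The counts of stretches with both libraries are therefore no measure of agreement, and were not tested.

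The fullest stretch lay at chr5:90882502-90887540, 323.7 kb from the gene start. It held 10 clusters of WT rep1 (291 reads) and 2 of WT rep2 (62 reads) within 5.04 kb. The tightest of the large ones, at chr5:90726410-90728432, packed 5 clusters of WT rep1 and 6 of WT rep2 into 2.02 kb, with 297 and 310 reads. It contains 2 of the sites printed above, at 90727308 and 90727895. By contrast the stretch at chr5:90566434-90570983, 7.64 kb from the gene start, held 10 clusters with 474 reads in WT rep1 and none in WT rep2. The stretch at chr5:90709183-90711793 was likewise seen in WT rep1 alone, with 6 clusters and 189 reads.

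The exact sites found in both WT libraries were fewer. Of the 59 ADGRV1 clusters of WT rep2, 11 shared 1 nt or more with one of WT rep1 on that strand, or 18.6% (exact interval 9.69 to 30.9%). Among the 22510 intronic clusters of WT rep2 outside ADGRV1 the share was 20.3%, which lies inside that interval. In the other direction 11 of 138, or 7.97% (4.05 to 13.8%), were shared, against 6.18% of other intronic clusters. The agreement on exact sites was thus near that of introns in general. For HDAC9, a class IIa histone deacetylase gene, the share of WT rep2 clusters was 32.4% (22.0 to 44.3%), for SND1 27.0% (17.4 to 38.6%) and for GPC3, a glypican gene, 24.0% (16.2 to 33.4%). All 3 intervals overlap that of ADGRV1.

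Clusters of WT rep1 covered 0.776% of the gene and those of WT rep2 covered 0.302%. Over the 59 clusters of WT rep2, with the 11 overlapping ones at a distance of 0, the median distance to the nearest ADGRV1 cluster of WT rep1 was 374 nt. Of the 48 that overlapped none, 4 lay within 100 nt and 29 within 1 kb. For HDAC9, counted alike, the median distance was 83.5 nt, for SND1 231.5 nt and for GPC3 154 nt, each shorter than in ADGRV1. No test was made of these differences, since the genes also differ in how densely their clusters lie.

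The ends of the shared sites were compared. Of the 11 pairs, 8 began at the same base, 4 ended at the same base and 3 did both. The overlap covered at least 94.3% of the shorter cluster in every pair, but the lengths could differ. At 91007395 the WT rep1 cluster was 49 nt long and that of WT rep2 32 nt, and at 90768657 the WT rep2 cluster began 13 nt later. In 5 pairs the WT rep2 cluster was 1 nt longer at the 3′ end, and in 4 of these the extra base was G. RNase T1, used to trim the RNA, cuts after G. In ADGRV1, 96.6% of the clusters of WT rep2 and 68.1% of those of WT rep1 ended in G. Other intronic clusters gave 94.6% and 73.9%, so this difference between the libraries was not peculiar to the gene.

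Read counts of the shared sites agreed loosely. The site at 91007395 had 105 reads in WT rep1 and 69 in WT rep2, and that at 90696669 had 48 and 112. The site at 90727895 had 134 and 11, the widest difference. Over the 11 pairs Spearman's rho was 0.374 and Pearson's r of log2 reads 0.404, as a description. WT rep2 had more reads in 8 pairs and WT rep1 in 3. In WT rep1 the shared sites had a median of 31 reads against 22 for the 127 others, while in WT rep2 they had 27 against 40.5 for the 48 others. The median T share of the shared sites was lower, at 39.4% against 42.9% in WT rep1 and 40.6% against 47.0% in WT rep2. Also lower was the median share of reads that the authors gave as converted. It was 78.3% against 94.1% in WT rep1 and 92.6% against 97.4% in WT rep2. The medians of shared sites rest on 11 sites. Of the ADGRV1 clusters with 5 to 9 reads, 4.55% were shared in WT rep1 (1 of 22) and 0 of 7 in WT rep2, and of those with at least 100 reads 33.3% (2 of 6, exact interval 4.33 to 77.7%) and 11.1% (1 of 9, 0.281 to 48.2%). At 10 to 49 and 50 to 99 reads the shares were 6.52% (6 of 92) and 11.1% (2 of 18) in WT rep1. In WT rep2 they were 29.6% (8 of 27) and 12.5% (2 of 16), so ADGRV1 showed no steady rise there. Other introns gave 4.72% and 13.0% in WT rep1 and 19.1% and 21.4% in WT rep2 at these reads. Among other intronic clusters the shared part was larger at more reads in both libraries, from 3.14% at 5 to 9 reads to 29.8% at 100 or more in WT rep1, and from 8.75% to 31.2% in WT rep2. Those values of other introns lie inside the wide ADGRV1 intervals at 100 or more reads.

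The deepest clusters were looked at singly. In WT rep1 the 3 clusters with the most reads lay at chr5:90603323-90603357 (263 reads), chr5:90587069-90587105 (152) and chr5:90727895-90727927 (134), and the third is one of the shared sites. In WT rep2 they lay at chr5:90866627-90866659 (192 reads), chr5:91040930-91040963 (165) and chr5:91136577-91136611 (157), none of them shared. The deepest cluster of WT rep1 lay 16159 nt from the nearest ADGRV1 cluster of WT rep2. The cluster with 152 reads lay 27 nt from one of WT rep2. The cluster of 157 reads in WT rep2 came from 1 distinct read sequence, whereas the 263 reads in WT rep1 came from 21. The deepest of each library are shown for comparison with the shared sites.
WT rep1 at chr5:90603323-90603357: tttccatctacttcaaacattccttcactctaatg
WT rep1 at chr5:90587069-90587105: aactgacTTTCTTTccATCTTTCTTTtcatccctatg
WT rep2 at chr5:90866627-90866659: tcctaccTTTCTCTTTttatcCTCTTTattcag
WT rep2 at chr5:91040930-91040963: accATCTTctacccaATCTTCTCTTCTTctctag
Each of those printed here ends in G and is made mostly of T and C. This did not hold in full for the others named. The WT rep1 cluster of 134 reads, printed further above, ends in A. In the WT rep2 cluster of 157 reads A is the commonest base, at 42.9%, with 37.1% T and 17.1% C.

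Reads were spread over many sites. The median ADGRV1 cluster had 23 reads in WT rep1 (range 5 to 263) and 33 in WT rep2 (6 to 192), against 20 and 38 in other intronic clusters. The 3 deepest clusters held 12.2% and 16.6% of the gene's cluster reads. The median cluster rested on 3 distinct read sequences in both libraries, and 10 clusters of WT rep1 and 9 of WT rep2 rested on 1. Reads per distinct sequence were 7.60 and 16.5.

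The base composition of the sites was compared with that of other introns. ADGRV1 clusters were 42.7% T in WT rep1 and 45.0% in WT rep2, a mean of 43.9 ± 1.66% (SD, n = 2). All other intronic clusters were 40.4% and 42.1% T, a mean of 41.2 ± 1.22%, so ADGRV1 was higher within each library, and the means differed by more than the SD of either. G was scarcer, at 7.58% and 6.45%, a mean of 7.01 ± 0.799%, against 10.00% and 9.79% in other introns (9.89 ± 0.151%). The gap in G exceeded the spread between the libraries. These SDs describe 2 libraries and leave out the spread between single clusters, and the differences were not tested. C was 25.4 ± 0.340% against 27.3 ± 0.628%, and A was 23.7 ± 1.20% against 21.6 ± 0.437%. The composition of the unbound intron was not analysed here, so a property of the sites and one of the gene cannot be told apart.

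Among the 39 genes with at least 30 clusters in each WT library, ADGRV1 had the 4th lowest G share in WT rep1 and the 2nd lowest in WT rep2. Over those genes G ran from 6.20 to 17.1% with a median of 9.30% in WT rep1, and from 6.45 to 15.5% with a median of 9.70% in WT rep2. Its T share ranked 9 from the top in WT rep1 and 3 in WT rep2. HDAC9 was close to it in T, at 42.7% and 44.7%, and had 7.68% and 8.48% G. SND1 had 39.0% and 39.7% T and 11.0% and 10.5% G.

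**Figure D5:**
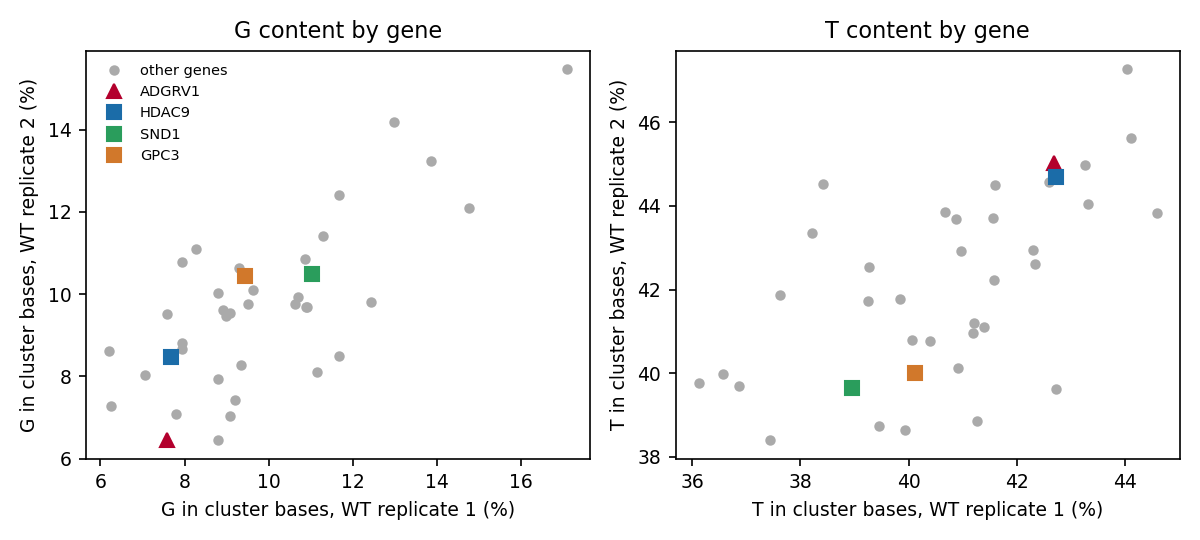
G share (left) and T share (right) of cluster bases in WT rep2 (y axis, %) against WT rep1 (x axis, %), one point for each of 39 genes with at least 30 clusters in each library. ADGRV1 (triangle) lies low in G, at 7.58% and 6.45%, and toward the top in T, beside HDAC9.

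Single sites varied around these values. T made up 20% to 68.8% of an ADGRV1 cluster in WT rep1 and 15.4 to 68.6% in WT rep2. TTCTT occurred in 47 of 138 clusters (34.1%) and in 25 of 59 (42.4%), against 30.6% and 32.0% of other intronic clusters. TTTCT was found in 32.6% and 39.0%, against 32.4% and 33.1%, and TCTTT in 33.3% and 40.7%, against 30.7% and 32.8%. CTCTT was in 16.7% and 23.7%, against 22.4% and 23.0%. ATCTT, a word known from in vitro selection with MATR3, was in 28 clusters of WT rep1 (20.3%) and 10 of WT rep2 (16.9%), against 14.8% and 15.9%. At least 1 of the 4 words made of T and C alone was present in 55.1% and 69.5% of the clusters, against 58.9% and 61.0%. The order of ADGRV1 and other introns thus turned between the WT libraries for CTCTT and for that count. GTGGC was in 1 cluster of WT rep1 and in none of WT rep2, and it was rare in other intronic clusters too, at 1.53% and 1.24%.

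T-to-C conversion was a little lower than elsewhere. Of the T positions read in ADGRV1 clusters 7.16% were converted in WT rep1 and 7.38% in WT rep2, a mean of 7.27 ± 0.151% (SD, n = 2), against 8.03% and 7.77% in other intronic clusters (7.90 ± 0.183%). ADGRV1 lay lower in both libraries, by more than the spread of either mean. That spread is again between libraries and leaves out the spread between single clusters. The value was not peculiar to the gene. Among the 39 genes with at least 30 clusters in each WT library, ADGRV1 ranked 8 from the lowest in WT rep1 and 15 in WT rep2. The medians of those genes were 7.78% and 7.58%, and HDAC9 had 7.08% and 7.53%. The higher T share given above moved with this lower value, and its part in the difference was not tested. Of the ADGRV1 clusters 53.6% and 78.0% had 2 converted positions, the lowest number listed in any library, against 58.7% and 74.7% of other intronic clusters. By the authors' fraction column, the reads carrying a change made up 94.0% and 96.8% in the median cluster, against 94.1% and 97.6% in other introns. That column and the conversion events do not count alike. The WT rep1 cluster at 90610006 had 3 conversion events in 15 reads but a fraction of 73.3%. By that fraction, clusters with a change in fewer than 50% of their reads numbered 6 in WT rep1 and 2 in WT rep2. These were 4.35% and 3.39% of the ADGRV1 clusters, near the 3.74% and 3.15% of other intronic clusters. Among the shared sites that at 90780695, a run of TTTC repeats, was low in both libraries, at 34.6% and 48.4% of the reads.

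The KO library had 1 ADGRV1 cluster, of 298 reads, 384.6 kb from the gene start. A KO cluster was found in 2.86% of protein-coding genes and in 11.7% of those of at least 500 kb. Of the 6 genes with 50 or more clusters in both WT libraries, ADGRV1 among them, 4 had a KO cluster. These shares are the background to this single cluster. Its 298 reads exceeded those of every ADGRV1 cluster of the WT libraries, whose highest were 263 and 192, but were ordinary for KO: 209 of 540 intronic KO clusters had at least as many, and their median was 240. Reads per cluster are not comparable across libraries that called such different numbers of clusters.

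In sequence it stood apart from the WT sites. It was 36.7% G and 30% T. Of the WT clusters, 1 of 138 in replicate 1, the coding one at 90679555, and 0 of 59 in replicate 2 had as much G. Its T share was reached or exceeded by 124 of 138 and 56 of 59. Within KO, 36 of 540 intronic clusters had at least as much G, and the median was 14.5%. Of its T positions 22.1% were converted, with 592 conversions in 298 reads, or 1.99 a read at 2 positions. The median was 11.4% over KO intronic clusters, 7.67% over ADGRV1 clusters of WT rep1 and 8.33% over those of WT rep2. The reads came from 4 distinct sequences.

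The KO cluster overlapped no WT cluster, but it lay in a region that the WT libraries also marked. The nearest cluster of WT rep1, of 6 reads, began after a gap of 5 nt downstream, and the nearest of WT rep2, of 144 reads, lay 638 nt downstream. Both are printed above beside it. With 1 KO library the difference between genotypes has no replicate check, and no p-value was computed.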

How the data were processed

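MATR3 PAR-CLIP clusters from 2 WT and 1 KO HAP1 libraries were analysed. The submitters' processing notes name cutadapt 1.8.3, Bowtie 1.1.2 and the builds hg38 and GRCh38.p5; the cluster caller, its filters and the roles of these tools are not given in the sources used here. The deposited tables give, per the file headers, whole-number counts of reads, distinct read sequences and conversion events per cluster, not normalised. The authors' fraction columns state how much of each cluster's reads was converted, or stopped at a G. The deposited score columns of the caller entered no result. Every listed cluster had at least 5 reads and 2 converted positions.

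ADGRV1 clusters were taken by gene name. Gene intervals came from RefSeq (GRCh38.p14). Intervals on shares are 95% exact binomial (Clopper-Pearson). No test between genotypes was run, since there is 1 KO library, and clusters are not replicates. The members, the gene lists, the words and the comparisons were chosen with earlier results of these data known. Genes named are ADGRV1, the 5 most like it in cluster counts, HDAC9, SND1 and GPC3, the Usher and adhesion receptor lists, the neighbours within 500 kb, and PPFIA2, which was added after its value was seen. The limits of 30 clusters, 500 kb, 2000 nt and 5 clusters per stretch were set after the data were seen. A gene of the Usher list, left out of its counts, and the sequence and reads of 1 shared site are not reported here. Alternatives were read and conversion limits, overlap rules, merging, trimming and leaving out a library. Overlap, gap and word functions were tested on simulated data. The software was Python 3.11.15 (numpy 2.4.6, matplotlib 3.10.9, pandas 2.3.3, scipy 1.17.1).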

Additional observations from a re-analysis of the deposited data

How the results depend on the processing

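Requiring at least 3 converted positions, which leaves 64 and 13 ADGRV1 clusters in WT rep1 and rep2 and selects on conversion itself, moved most results. The WT mean of clusters became 38.5, the share of WT rep2 clusters found in WT rep1 became 7.69%, the share upstream of the midpoint 53.5%, the median gap 7359 nt, the T share 47.4% and the converted share of T positions 6.51%. At least 10 reads moved the share upstream of the midpoint to 56.8%. Leaving out a WT library gave 59 to 138 clusters. The other alternatives moved no result by more than the spread between the WT libraries, or, for shared sites, outside the 95% interval; for shared sites they ran from 10.2%, with WT rep1 limited to its 59 deepest clusters, to 25.4% when clusters within 100 nt were counted. Values such as the median gap follow the number of clusters called, and the unequal libraries limit them. No paired analysis was possible because the KO label carries no replicate number and no group test was run.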
